A study of Mus musculus with 8 samples.

Results

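The insulin-like growth factor (IGF) family genes examined were the ligand genes Igf1 and Igf2, the receptor genes Igf1r and Igf2r, and the binding protein genes Igfbp2, Igfbp3, Igfbp4, Igfbp5, Igfbp6 and Igfbp7. They were chosen by name, by taking every probe whose gene symbol was one of these, which gave 10 genes with 15 probes among the 18138 gene symbols and 25697 probes of the array. The question was how the mRNA of these genes stood in mouse aortic smooth muscle cells given a synthetic copy of moR-21 beside cells given a scrambled oligo. RNA was measured on Illumina mouse BeadChips, on which a bead-bound probe reads 1 transcript or a group of transcripts as a fluorescence intensity.

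The control group was 3 samples of primary smooth muscle cells from mouse aorta that received the scrambled oligo, and the moR-21 group was 3 samples of the same kind of cells transfected with the moR-21 mimetic. Both oligos were used at 5 nM with RNAiMAX, a lipid transfection reagent, and RNA was taken at 48 hours. The cells of both groups had grown out of pieces of several mouse aortas with the outer layer cleaned off, and were kept before use in low glucose medium with charcoal-treated serum. The strain, sex and age of the mice were not given in the sources used here, and no untransfected cells were analysed here. By their titles, control 1 and moR-21 3 each had an A and a B array. These were read as repeats of 1 sample and averaged, so that 8 arrays gave 6 samples. Whether A and B share an RNA extract is not stated. The labels do not say that the samples of a group came from separate cultures, so the p-values measure the spread between these samples, which may be technical.

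IGF-I and IGF-II are secreted peptides that signal through the IGF-I receptor, a tyrosine kinase that feeds the PI3K/Akt and MAP kinase pathways and supports the growth and survival of smooth muscle cells. The IGF-II receptor, which also carries mannose 6-phosphate-tagged lysosomal enzymes, takes IGF-II into the cell for degradation. The IGF-binding proteins hold the ligands in the fluid around the cell, and proteases that cut them release the ligand.

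MoR-21 is a small RNA that lies next to mature miR-21 on the same hairpin precursor. The RefSeq hairpin of Mir21a and the mature miR-21a-5p are shown because they place the hairpin arm that moR-21 comes from beside its better known neighbour. Both lie on the minus strand of the mouse assembly GRCm38.p6, the first at chr11:86584142-86584158 and the second directly after it at chr11:86584120-86584141. Capitals mark the first 7 bases of the hairpin stretch, and in miR-21a-5p they mark the seed, bases 2 to 8. The sequence of the mimetic itself was not used here.
Mir21a hairpin before miR-21a-5p: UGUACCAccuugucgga
miR-21a-5p: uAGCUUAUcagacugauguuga

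The arrays were alike in brightness, with median intensities of 102.5 to 109.2 and 10285 to 10512 probes detected on each array, and no array stood apart from its group. The labels name aortic smooth muscle cells in the source field and the letters AoECs in the description field, so markers of several cell types were read. Of 10 smooth muscle markers 5 were detected, and their summed intensity was 9953 to 10330 in the control samples and 12700 to 13550 in the moR-21 samples, while the late contractile markers Myh11 and Cnn1 were not detected. That sum is mostly Acta2, which was called higher at all 4 of its probes. Its brightest probe gave 0.40 on the log2 scale and the others 0.64, 0.73 and 0.81. Tagln gave 0.20 from a probe detected on 4 arrays and Lmod1 0.050 from a probe detected on 3, neither called. Smtn gave -0.049 and Des -0.378, also not called. Des had a limma adjusted p of 8.60e-05, but its change lay just under the fold cutoff, 0.379 on the log2 scale. Of 10 endothelial markers 2 were detected, Vwf and Egfl7, with summed intensities of 407.1 to 437.5 and 402.5 to 417.3, and the defining markers Pecam1 and Cdh5 were not. Fibroblast markers, of which 4 of 7 were detected, summed to 13800 to 14380 in control samples and 11180 to 12440 in moR-21 samples. Of these, Lum was called lower (-0.56), while Dcn (-0.22), Pi16 (-0.29) and Pdgfra (-0.17) were not called. The 2 detected of 8 mesothelial markers summed to 770.9 to 779.6 in control samples and 402.4 to 415.7 in moR-21 samples. Upk3b was called lower (-1.24), while Krt19 (-0.13) was not called. Macrophage markers, 3 of 8 detected, summed to 1622 to 1688 and 1465 to 1498, with Cd14 at -0.27, not called, and Lyz2 called higher at 0.48. The 1 detected adipocyte marker of 6 was at 172.5 to 192.2 and 166.2 to 180.2. The part that these differences between the groups play in the values of the IGF genes was not tested, and in bulk RNA fewer cells of a type and less RNA per cell cannot be told apart.

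In these cells 9 of the 10 genes were detected, and none of the 9 differed between the groups past the cutoffs used, a fold change over 1.3 with an adjusted p under 0.002 by limma. Igf2 and Igfbp4 stood lowest in the moR-21 samples against the control samples, at -0.23 and -0.23 on the log2 scale, and Igfbp5 followed at -0.14. Igf2r alone among the 9 was higher in the moR-21 samples, at 0.11, with groups that overlapped. Where more than 1 probe of a gene was detected, its brightest stands for the gene here.

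The 9 genes included 0 called lower, where 4.38% of the 8727 genes tested were called lower, and 0 called higher, where 3.41% were. Unadjusted p-values under 0.05 were found for 3 genes lower in the moR-21 group (Igf2, Igfbp4 and Igfbp5), where 21.1% of all genes were lower by that rule, and for 0 higher, where 23.4% were. With no fold change cutoff and an adjusted p under 0.05, limma gave 3 genes lower (Igf2, Igfbp4 and Igfbp5) and 0 higher, where 17.3% of all genes were lower and 18.8% higher by that rule. The samples of the groups did not overlap, with moR-21 lower, in 4 of the 9 genes (Igf2, Igf1r, Igfbp4 and Igfbp5), against 21.9% of all genes, and with moR-21 higher in 0 of the 9, against 24.4%. With 9 genes these counts are few, and they are given as a description. The median log2 fold change of the 9 genes was -0.087, where that of all genes tested was 0.0056, and the median size without regard to sign was 0.094 in the family and 0.097 in all genes.

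**Figure D1:**
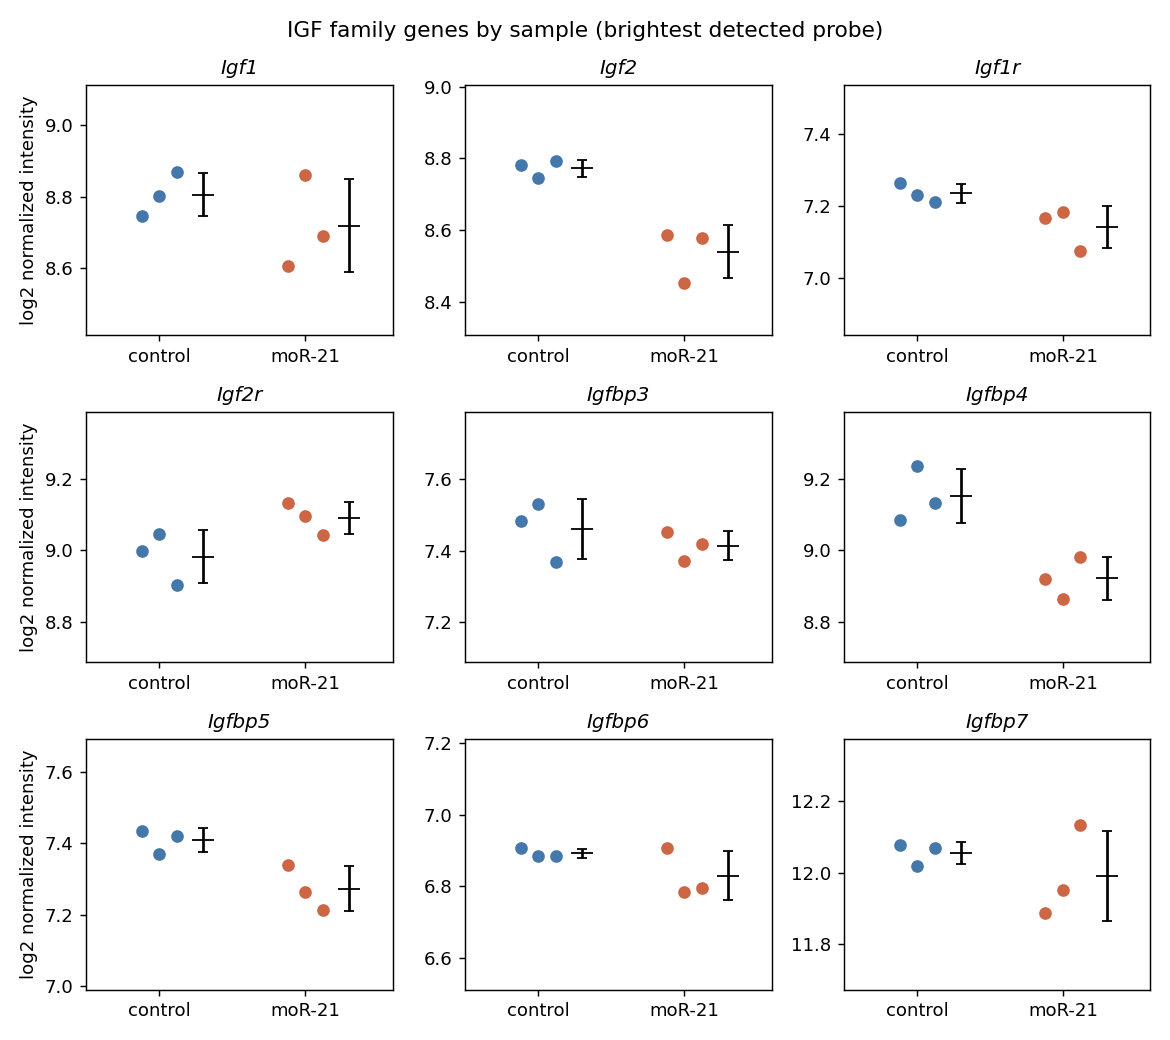
Each panel plots the log2 normalized intensity of 1 IGF family gene at its brightest detected probe in the 3 control samples (blue) and the 3 moR-21 samples (orange), ordered by sample number, with the mean and SD of each group beside the points; every panel spans the same height on the log2 scale. The groups stand apart for Igf2, Igf1r, Igfbp4 and Igfbp5, with moR-21 lower, and overlap for the other 5 genes.

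Of the ligands, Igf2 separated the groups without being called, and Igf1 overlapped between them at its brighter probe. Igf2, the fetal growth ligand encoded in an imprinted region, had log2 normalized intensities of 8.78, 8.75 and 8.79 in control 1, 2 and 3 and of 8.59, 8.45 and 8.58 in moR-21 1, 2 and 3. Every moR-21 sample lay below every control sample, and the lowest control sample and the highest moR-21 sample were 0.16 apart. The means were 8.77 ± 0.024 and 8.54 ± 0.074 (SD, n = 3 each), and the log2 fold change of -0.23 had a standard error of 0.050, a 95% confidence interval of -0.34 to -0.13 and a limma adjusted p of 0.00217. That adjusted p lay just outside the cutoff, and the change, a fold of -1.18 where the minus sign marks a lower moR-21 mean, lay further outside its own. Some alternatives took the adjusted p past its cutoff, to as low as 0.000887 with the replicate number as a block. Under all of them the fold stayed too small for a call, although the block could not change the fold. The single arrays also stood apart, from 8.71 to 8.85 in the controls and from 8.45 to 8.62 in the moR-21 group, although before normalization control 2, at an intensity of 395.4, lay below moR-21 1 (396.5) and the A array of moR-21 3 (405.1). The two-sided exact permutation p over the 6 samples was 0.1, the smallest that 3 against 3 allow.

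In the RefSeq order of GRCm38.p6, Igf2 on chromosome 7 is next to Ins2, an insulin gene, and has 1 gene and 0 protein-coding genes between it and H19, the noncoding RNA gene imprinted opposite to it. Neither H19 nor Ins2 was detected here, so of these named genes only Igf2 had a measured value.

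Igf1, the ligand best known as the mediator of growth hormone, had 2 detected probes. The brighter, annotated to transcript variant 1, read 8.75, 8.80 and 8.87 in the controls and 8.61, 8.86 and 8.69 in the moR-21 samples, where moR-21 2 lay among the controls. Its log2 fold change was -0.087 with a 95% confidence interval of -0.22 to 0.046 and a limma adjusted p of 0.318. The dimmer probe, annotated to transcript variant 2, read 7.35, 7.46 and 7.40 against 7.27, 7.31 and 7.34, so that its samples just failed to overlap, by 0.0065, while its single arrays did overlap. Its log2 fold change was -0.094 (95% confidence interval -0.20 to 0.0085), with a limma adjusted p of 0.152. The difference between the 2 probes changed by 0.0064 on the log2 scale between the groups, with an exact permutation p of 1 in a design that cannot go below 0.1.

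Of the receptors, neither differed past the cutoffs and their differences had opposite signs. Igf1r, the signalling receptor, read 7.26, 7.23 and 7.21 in the control samples and 7.17, 7.18 and 7.07 in the moR-21 samples. The groups did not overlap, but the nearest samples were 0.028 apart, less than the 0.046 that separated the A and B arrays of control 1. The log2 fold change was -0.094 ± 0.048 (standard error), with a 95% confidence interval of -0.20 to 0.0084, a limma adjusted p of 0.152 and an exact permutation p of 0.1. In size this was larger than the log2 fold changes of 51.2% of the probes tested, about the middle of the array. Before normalization the arrays overlapped, with an intensity of 142.7 in control 2 and 147.03 in moR-21 1.

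The Igf1r probe was dim, at intensities of 131.9 to 167.1 where the medians of the arrays were 102.5 to 109.2, and no background had been subtracted. With background correction by the normexp method the log2 fold change was -0.22, with a 95% confidence interval of -0.42 to -0.017 and a limma adjusted p of 0.0968, still outside the cutoffs. Over all the alternatives tried for this probe it ranged from -0.22 to -0.060, and its limma adjusted p from 0.0598 to 0.434.

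Igf2r, the clearance receptor for IGF-II, had 2 detected probes that both read higher in the moR-21 group on average. The brighter read 8.998, 9.05 and 8.90 in the controls and 9.13, 9.10 and 9.04 in the moR-21 samples, so that control 2 lay just above moR-21 3, the single crossing between the groups. Its log2 fold change was 0.11 with a 95% confidence interval of -0.0010 to 0.22 and a limma adjusted p of 0.122. The dimmer probe read 8.88, 9.04 and 8.87 against 8.98, 9.18 and 8.90, with wide overlap, and gave 0.090 (95% confidence interval -0.060 to 0.24, limma adjusted p of 0.365). Its samples of number 2 were the highest of both groups.

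Among the binding proteins, Igfbp4 and Igfbp5 were lower in every moR-21 sample, Igfbp3, Igfbp6 and Igfbp7 overlapped, and Igfbp2 was not detected. Igfbp4, a binding protein known as an inhibitor of IGF action and as the substrate of the protease PAPP-A, read 9.09, 9.23 and 9.13 in the controls and 8.92, 8.86 and 8.98 in the moR-21 samples at its brighter probe. The groups were 0.10 apart at their nearest samples, and the single arrays were apart as well, both after normalization and before it, at 534.3 to 634.8 in the controls and 444.8 to 516.8 in the moR-21 group. The means of 9.15 ± 0.076 and 8.92 ± 0.060 (SD, n = 3 each) gave a log2 fold change of -0.23 with a 95% confidence interval of -0.34 to -0.12, a limma adjusted p of 0.00375 and an exact permutation p of 0.1.

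A second Igfbp4 probe, with no transcript named in the table used here, did not separate the groups. It read 8.10, 8.12 and 8.28 in the controls and 8.24, 8.08 and 7.98 in the moR-21 samples, and gave -0.067 (95% confidence interval -0.21 to 0.076, limma adjusted p of 0.492). Between the groups the difference of the 2 probes changed by -0.16 on the log2 scale, with an exact permutation p of 0.3, or 0.9 after Benjamini-Hochberg adjustment over the 3 genes with 2 detected probes. Since 3 against 3 samples cannot go below 0.1, this test could not have shown that the probes differ.

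Igfbp5, a binding protein that smooth muscle cells secrete and that attaches to the extracellular matrix, read 7.44, 7.37 and 7.42 in the controls and 7.34, 7.26 and 7.22 in the moR-21 samples. All 3 moR-21 samples lay below the controls, the nearest pair of samples 0.031 apart. Its log2 fold change was -0.14 with a 95% confidence interval of -0.24 to -0.032 and a limma adjusted p of 0.0441, with an exact permutation p of 0.1. That adjusted p passed 0.05 by little, and rose above it on leaving out control 1 (0.139), control 2 (0.0527), control 3 (0.101), moR-21 2 (0.0925) or moR-21 3 (0.164), with median scaling (0.114) and with the B arrays alone (0.0788). Before normalization control 2, at an intensity of 156.4, lay below moR-21 1, at 165.9. Igfbp5 is the direct neighbour of Igfbp2 on chromosome 1, on the opposite strand with 0 genes between them, and of this pair it was the one detected.

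Igfbp2, a binding protein abundant in fetal tissues, was not detected on any of the 8 arrays at either of its probes, with detection p-values of 0.35 to 0.893 and of 0.421 to 0.996. No fold change is given for it. A detection p-value is the share of negative control probes brighter than the probe, so values in this range lie within the array background.

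Igfbp3, the main carrier of IGFs in the circulation, read 7.48, 7.53 and 7.37 in the controls and 7.45, 7.37 and 7.42 in the moR-21 samples, all moR-21 samples within the range of the controls. Its log2 fold change was -0.046 (95% confidence interval -0.16 to 0.065, limma adjusted p of 0.551). Its neighbour on chromosome 11, Igfbp1, was not detected. Igfbp6, which prefers IGF-II to IGF-I, was close to the detection limit, detected on all 4 control arrays and on 2 of the 4 moR-21 arrays. It read 6.91, 6.88 and 6.89 in the controls and 6.91, 6.79 and 6.80 in the moR-21 samples, so that moR-21 2 and 3 lay below the controls and moR-21 1 did not. The log2 fold change was -0.063 (95% confidence interval -0.17 to 0.041, limma adjusted p of 0.362).

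Igfbp7, a low-affinity IGF binder found in vessel walls, had 1 detected probe. It read 12.08, 12.02 and 12.07 in the controls and 11.89, 11.95 and 12.13 in the moR-21 samples, where moR-21 3 was the highest of all 6. The log2 fold change was -0.064 (95% confidence interval -0.19 to 0.063, limma adjusted p of 0.458). The A and B arrays of control 1 differed by 0.35 at this probe, at 12.25 and 11.90, more than any of the samples did, while the other A and B pairs of the family's detected probes differed by 0.0072 to 0.13. A second Igfbp7 probe was not detected on any array, with detection p-values of 0.702 to 0.936.

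**Figure D2:**
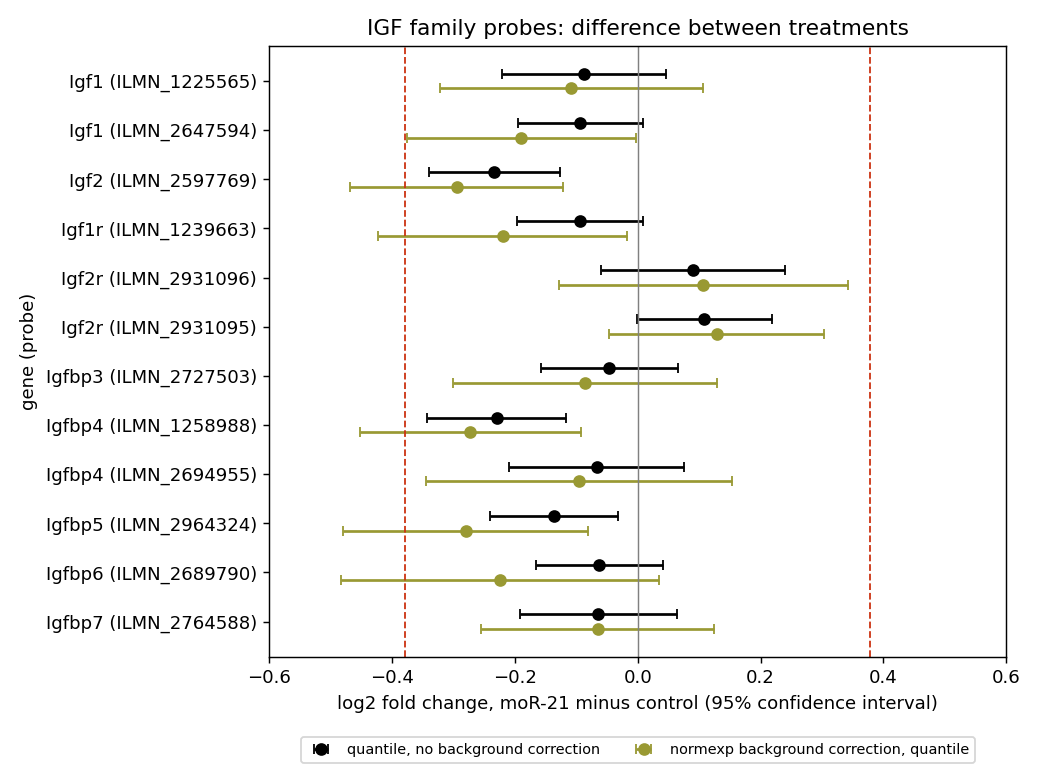
Each row is 1 detected probe of an IGF family gene, with the log2 fold change (moR-21 minus control) as a point and its 95% confidence interval as a bar, without background correction in black and with normexp in olive; the dashed lines mark a fold change of 1.3 in either direction. All 12 black intervals lie between the dashed lines, and 7 of the 12 olive intervals do.

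The intervals give the size of change that the values allow under a given processing, and they rest on the spread between these samples. All 12 detected probes had 95% confidence intervals that lay within a fold change of 1.3 in either direction, with standard errors of 0.048 to 0.070 and bounds no lower than -0.34 and no higher than 0.24 on the log2 scale. With background correction, which widens the log2 scale of dim probes, 7 of the 12 intervals lay within it, with bounds from -0.48 to 0.34 and standard errors of 0.077 to 0.11. The probes that then reached past the lower limit were those of Igf2, Igf1r, Igfbp4 (the brighter), Igfbp5 and Igfbp6, with log2 fold changes of -0.29, -0.22, -0.27, -0.28 and -0.22. No probe was called under that setting either.

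Other genes of the pathway were read in 5 lists, and most of their detected members also lay within the cutoffs, in numbers that can be set beside the 4.38% called lower and 3.41% called higher of all genes. The list of receptor signalling genes had 28 detected of 47, of which 0 were called higher and 1 lower, with a median log2 fold change of -0.0615. The called gene was Pik3cb, which encodes a catalytic subunit of PI3-kinase and fell from 7.77 ± 0.10 to 7.30 ± 0.043 (SD, n = 3 each; limma adjusted p of 2.07e-05). The adaptor gene Irs2 gave -0.10, the PI3-kinase regulatory subunit gene Pik3r1 0.28 with a limma adjusted p of 2.06e-04 but a fold under the cutoff, and the transcription factor gene Foxo1 -0.036, while Insr, Irs1 and Akt1 were not detected.

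The list of proteases that cut the binding proteins, with their inhibitors, also held Igfals, which is neither. It had 16 detected of 22, of which 2 were called higher and 2 lower, with a median of 0.010. Adam12, a metalloprotease reported to cut Igfbp3 and Igfbp5, fell by 0.67 on the log2 scale, and Mmp14, a membrane-bound collagenase, fell by 0.44. Mmp3, stromelysin, rose by 0.52, with a further probe of 3 also called, and Timp3, a metalloprotease inhibitor, rose by 0.56 at 1 probe, while its other probe gave 0.021 and was not called. Htra1, a secreted serine protease with an IGF-binding-protein-like domain, gave -0.27 with a limma adjusted p of 4.34e-04, under the fold cutoff, and Stc2, which blocks PAPP-A, gave -0.022 from a probe detected on 3 arrays. Pappa, the gene of PAPP-A, had no probe under that symbol in the data used here.

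Of the genes related to the binding proteins, including the CCN family of matrix proteins, 6 of 12 were detected, and 1 was called higher and 0 lower, with a median of 0.042. That gene was Ccn5, named Wisp2 on the array, which rose from 9.26 ± 0.054 to 10.18 ± 0.064 (SD, n = 3 each; limma adjusted p of 1.02e-08). Ccn1, known as an immediate early gene, gave 0.17 and Ccn2, known as connective tissue growth factor, 0.032, neither called. The Ccn1 probe was dim, with a control mean of 6.87, and the other detected probe of Ccn1 gave 0.0068, not called. Of the list of the Igf2 locus and IGF2 mRNA-binding genes 4 of 15 were detected, 0 were called in either direction and the median was -0.061. Igf2bp2, an RNA-binding protein gene, gave 0.073, and Igf2bp3 gave -0.12 from a probe detected on 1 array.

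The list of mannose 6-phosphate sorting genes, which shares its route with Igf2r, had 17 detected of 20, of which 1 was called higher and 0 lower, with a median of -0.11. The called gene was Vps29, a subunit of the retromer that returns receptors from endosomes, which rose from 10.95 ± 0.096 to 11.34 ± 0.058 (SD, n = 3 each; limma adjusted p of 1.05e-04). Its log2 fold change of 0.385 lay just past the cutoff of 0.379, and Vps29 was not called without control 1 (0.33) or without moR-21 3 (0.36), nor with normexp, at 0.40 and a limma adjusted p of 0.0056. Of its other probes 1 was also called, at 0.46, and the remaining probe gave 0.13 and was not. M6pr, the smaller mannose 6-phosphate receptor, gave -0.28 with a limma adjusted p of 0.00512 and was not called, with the opposite sign to Igf2r.

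**Figure D3:**
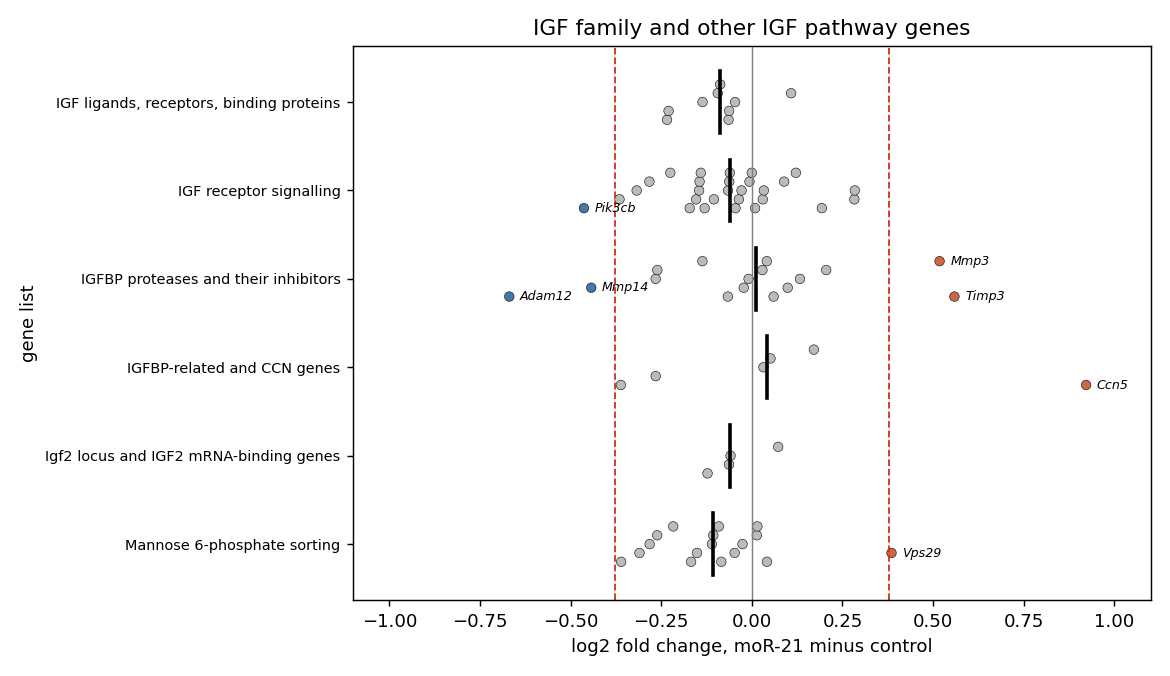
Each point is 1 detected gene at its brightest probe, placed by its log2 fold change (moR-21 minus control) in the row of its list; blue points were called lower, orange points higher and grey points not called, black bars are list medians and dashed lines mark a fold change of 1.3 in either direction, with vertical scatter added only to separate points. The top row, the 9 IGF family genes, runs from -0.23 to 0.11 within the dashed lines, while Adam12 and Ccn5 lie farthest out in the other lists.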

How the data were processed

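The labels name 8 Illumina arrays, and A and B in their titles were read as repeats of 1 sample, which gave 6 samples. The methods name a pair of mouse designs. The authors deposited non-normalized probe intensities and a detection p-value for each, with no background correction or filter stated; 0 columns lacked a sample. Intensities of the 8 arrays were quantile normalized together and transformed to log2 from the deposited values, without background correction, and A and B arrays were averaged. The 11651 probes that at least 1 array detected (p-value under 0.01) were compared with limma 3.58.1 (lmFit and eBayes, R 4.3.3), the treatment being the only term, with Benjamini-Hochberg adjustment over all of them. Calls needed both of the study's cutoffs, 1.3 for the fold change and 0.002 for the adjusted p, and the brightest detected probe stood for a gene. Marker sums are normalized intensities on a linear scale. Figures were drawn with matplotlib 3.10.9.

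All members were named, and of the lists the called genes, at most 5 each, with keystone genes. Pecam1, Cdh5, Myh11, Cnn1, Vwf, Egfl7, Acta2, Tagln, Lmod1, Smtn, Des, Cd14, Lyz2, Igfbp1, Ins2 and Igfals were added as checks. The markers Lum, Dcn, Pi16, Pdgfra, Upk3b and Krt19 were added likewise. 1 gene of the signalling list is not reported here. Members and lists were chosen with earlier results of these data known. Gene order and names came from RefSeq (GRCm38.p6). Alternatives were normexp (offset 16), median scaling, cyclic loess, other detection filters, any detected probe of a gene, array A or B alone, all 8 arrays with duplicateCorrelation, a trended robust eBayes, a replicate block, each sample left out, and, as cutoffs, 0.05 for the adjusted p or 1.5 for the fold change. The scripts were tested on simulated data. The number of arrays limits the precision.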

Additional observations from a re-analysis of the deposited data

How the results depend on the processing

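No IGF family gene was called in either direction under any of the 19 other settings listed with the methods. None of the 191 probe values changed sign under them. Some of these settings could change neither result. Other detection filters, trended robust eBayes and the replicate block left the fold changes as in the main fit. The looser adjusted p, stricter fold change and any detected probe reused that fit, where no probe passed the fold cutoff. The settings that moved the fold changes were normexp, median scaling, cyclic loess, array A or B alone, duplicateCorrelation and leaving samples out. With an adjusted p under 0.05 and no fold change cutoff, a rule added after the data were seen, 3 genes were lower. Whether replicate numbers pair the samples was not settled. Same-numbered samples correlated at 0.187, 0.0441 and 0.0597 in their deviations from the group means. Different-numbered samples correlated at -0.129 to 0.0693, the highest being control 3 with moR-21 2. With a replicate block 0 IGF family genes were called higher and 0 lower, which the unchanged fold changes fixed in advance. The limma adjusted p of Igf2 was 0.000887 with that block. Among the pathway lists, the count of called receptor signalling genes moved from 1 to 2 with normexp and to 2 without control 1, both of which added Pik3r2, and was 1 without each other sample. The count of called IGFBP-related and CCN genes moved from 1 to 2 with normexp, which added Htra1, and to 2 with median scaling, which added Ccn4 (Wisp1). Htra1 is also in the protease list, whose count moved from 4 to 5 with normexp. The count of called mannose 6-phosphate sorting genes moved from 1 to 0 with normexp. It ranged from 0 to 2 when each sample was left out in turn, an alternative added for the lists after the data were seen. It was 0 without moR-21 3, where Vps29 was not called, 2 without control 3 and 2 without moR-21 1, where Ap1m1 was called lower beside it, and 1 without control 1, where Ap1m1 took the place of Vps29. The cause of these shifts was not tested. No background was subtracted, and normexp moved the log2 fold changes of Igf1r, Igfbp5 and Igfbp6 most among the 12 probes, to -0.22, -0.28 and -0.22, while Igfbp7 gave -0.066 and the brighter Igf1 probe -0.11.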
